A study of Mus musculus with 12 samples.

Results

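The endothelium of the cochlear vessels and the barrier it forms were read through 10 genes in whole mouse cochleae: Abcb1a, Slc2a1, Cldn5, Cdh5, Pecam1, Kdr, Flt1, Tek, Mfsd2a and Ramp2. They were chosen by symbol, and all 10 were found among the 23951 genes of the table and among the 16276 genes tested. Polyadenylated RNA was sequenced in 12 cochlea libraries from mice on a mixed 129S2/SvPas:C57BL/6 background. Each library has its own code, taken here as that of a single mouse, which the labels do not state. There were 4 groups of 3 libraries: Dusp1-/- (KO) mice at 5 months (E7, F18 and F19), WT mice at 5 months (E1, E3 and E4), KO mice at 8 months (F5, F6 and F27) and WT mice at 8 months (F1, F10 and F12). Dusp1 encodes an inducible phosphatase that switches off mitogen-activated protein kinases. Dusp1 is mutated in the KO mice alone, and male and female animals were used together without a label for sex. The code letter is uneven over the groups: all WT libraries at 5 months are E, all libraries at 8 months are F, and KO at 5 months holds E7 beside F18 and F19. What the letter stands for is unknown, and in WT it cannot be told apart from age.

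Capillaries of the stria vascularis, the tissue of the lateral wall that makes endolymph and keeps its potential, are sealed much like those of the brain. Their endothelium is joined by claudins and cadherins, is poor in vesicle transport, and carries glucose and lipids inward through dedicated carriers while efflux pumps return foreign compounds to the blood. The growth and stability of these vessels depend on VEGF, angiopoietin and adrenomedullin, each acting through receptors on the endothelial cell.

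Values are FPKM, fragments per kilobase of transcript and per unit of mapped reads, a level that allows for transcript length and can be set side by side between genes. Read numbers are not known, and the FPKM of a library added up to 500384 to 583073. Differences are log2 of KO over WT, or of 8 over 5 months, on log2(FPKM + 0.5) from a limma fit of the 4 groups, with ± its standard error, a 95% interval, and p adjusted by Benjamini and Hochberg over all 16276 genes. Group levels are means ± SD with n = 3 libraries. Because whole cochleae were sequenced, fewer endothelial cells and less RNA per cell cannot be told apart.

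The labels could not be checked by the level of Dusp1 itself. It measured 61.9, 81.5 and 75.3 FPKM in the libraries labelled KO at 5 months, against 60.8, 47.6 and 29.5 FPKM in those labelled WT, and 55.6, 73.7 and 57.1 FPKM in the libraries labelled KO at 8 months, against 43.0, 38.3 and 38.6 FPKM in those labelled WT. A knocked-out gene was thus listed higher under the KO label at both ages, and the sources used here do not describe the construction of the allele. KO and WT are therefore used as the labels give them, and every direction between them rests on those labels. Markers of blood-forming cells also stood apart at 5 months and overlapped at 8 months. The 16 tested neutrophil genes had a mean log2 level of 5.98 to 8.29 in KO at 5 months against 1.32 to 3.42 in WT, and of 3.39 to 7.95 in KO at 8 months against 3.44 to 5.98 in WT, with E7 and F5 highest. The 18 tested brain genes, of 20 in the table, ran the other way, at 2.48 to 2.88 in KO against 2.70 to 3.80 in WT at 5 months and at 2.58 to 2.95 in KO against 2.77 to 3.06 in WT at 8 months. None of the listed neutrophil or brain genes in the table was at 0 in every library. The 15 tested genes of the stria vascularis were present in every group, at 4.46 to 5.02 over the 12 libraries.

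The promoters of the genes that the results below turn on are shown first, to give the sequence around the start of transcription. RefSeq windows of 300 bases, 250 before and 50 after the start in build GRCm38.p6, were found for 7 of the 10 genes, Abcb1a, Slc2a1, Cldn5, Kdr, Flt1, Tek and Mfsd2a. Slc2a1 (chr4:119108495-119108794, plus strand) and Mfsd2a (chr4:122961139-122961438, minus strand) are the pair of members whose levels moved most closely together. Capitals mark ACGTG, the core of the hypoxia response element, on either strand.
Slc2a1: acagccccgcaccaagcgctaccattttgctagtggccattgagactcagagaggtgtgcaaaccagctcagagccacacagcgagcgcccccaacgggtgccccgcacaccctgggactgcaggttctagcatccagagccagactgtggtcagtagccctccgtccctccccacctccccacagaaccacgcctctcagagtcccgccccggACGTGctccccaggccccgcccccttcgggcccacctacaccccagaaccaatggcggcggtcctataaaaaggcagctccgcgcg
Mfsd2a: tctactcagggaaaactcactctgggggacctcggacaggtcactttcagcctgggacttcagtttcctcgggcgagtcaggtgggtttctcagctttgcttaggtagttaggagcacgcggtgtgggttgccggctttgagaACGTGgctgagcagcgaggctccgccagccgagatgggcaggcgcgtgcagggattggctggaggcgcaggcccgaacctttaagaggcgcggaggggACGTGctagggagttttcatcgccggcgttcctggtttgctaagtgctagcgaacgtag
Flt1 (chr5:147725962-147726261, minus strand) and Kdr (chr5:75978406-75978705, minus strand) are the receptors of VEGF, set against each other further on. Capitals mark GGAAGT, an ETS motif, and TATAAA, the TATA box, in Flt1, and GGGCGG, the GC box, on either strand in Kdr.
Flt1: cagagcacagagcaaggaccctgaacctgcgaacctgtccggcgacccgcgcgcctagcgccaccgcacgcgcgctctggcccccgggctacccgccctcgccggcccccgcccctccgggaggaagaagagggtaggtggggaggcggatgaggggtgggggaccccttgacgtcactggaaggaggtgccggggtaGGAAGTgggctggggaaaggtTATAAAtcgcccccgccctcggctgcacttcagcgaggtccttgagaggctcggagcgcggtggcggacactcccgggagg
Kdr: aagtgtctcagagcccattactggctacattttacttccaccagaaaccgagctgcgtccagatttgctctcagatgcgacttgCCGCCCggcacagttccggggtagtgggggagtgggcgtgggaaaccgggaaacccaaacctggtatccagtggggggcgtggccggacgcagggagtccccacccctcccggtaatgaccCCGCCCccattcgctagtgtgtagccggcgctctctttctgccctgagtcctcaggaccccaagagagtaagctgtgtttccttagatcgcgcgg
The core ACGTG was found in 2 of the 7 windows, those of Slc2a1 and Mfsd2a, and in 19.6% of all 32851 windows of the same length. GGAAGT was found in 2 of the 7 (Flt1 and Kdr) and in 23.8% of all windows, GGGCGG in 4 (Cldn5, Flt1, Kdr and Slc2a1) and 35.7%, TATAAA in 2 (Flt1 and Slc2a1) and 13.6%, and ACAAT, a SOX motif, in 1 (Tek) and 31.0%. The TATAAA of Flt1 begins at base -31, before the start, and that of Slc2a1 at base 29, after it. TGANTCA, the AP-1 motif, was in 0 of the 7 and in 7.81% of all windows. Both strands were searched for each motif, none of the 6 holds another, and a match describes letters only. The window of Abcb1a belongs to a RefSeq gene of 181485 bases, whereas the annotation used by the authors in build mm9 gives Abcb1a 88479 bases, so it may not lie at the start of the transcript that was measured.

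In that mm9 annotation the 10 genes lie on 5 chromosomes apart from that of Dusp1, and none overlaps another annotated gene. Abcb1a (chr5:8660092-8748570, 28 exons), Kdr (chr5:76329299-76374453, 30 exons) and Flt1 (chr5:148373772-148537564, 30 exons) are on chromosome 5. Slc2a1 (chr4:118781350-118809934, 10 exons), Tek (chr4:94405980-94541667, 3 transcripts of 22 to 23 exons) and Mfsd2a (chr4:122624094-122638431, 14 exons) are on chromosome 4. Pecam1 (chr11:106515532-106576595, 2 transcripts of 14 and 15 exons) and Ramp2 (chr11:101107648-101109564, 4 exons) are on chromosome 11. Cldn5 (chr16:18776940-18778355) is a single exon on chromosome 16, and Cdh5 (chr8:106625525-106668402, 12 exons) is on chromosome 8.

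All 10 genes were detected in all 12 libraries, and they kept a similar order of level from library to library. Slc2a1, the glucose carrier, was the most abundant at 78.6 ± 10.3 FPKM (SD over the 12 libraries), above 93.5% of the tested genes. Ramp2, the partner protein of the adrenomedullin receptor, followed at 44.5 ± 7.30 FPKM and Cldn5, the endothelial claudin, at 38.2 ± 5.12 FPKM. Pecam1, an adhesion molecule of endothelium that platelets and leucocytes also carry, stood at 24.4 ± 3.24 FPKM and Cdh5, the cadherin of the endothelial adherens junction, at 19.6 ± 1.30 FPKM. Abcb1a, a P-glycoprotein efflux pump, had 14.8 ± 2.15 FPKM and Mfsd2a, the lysophospholipid carrier that holds down vesicle transport in brain endothelium, 13.2 ± 2.31 FPKM. The 3 receptor kinases were lowest, with Flt1 at 9.22 ± 1.24 FPKM, Tek, the angiopoietin receptor, at 8.06 ± 0.752 FPKM and Kdr, the main signalling receptor of VEGF, at 7.50 ± 0.635 FPKM. Of the 9 pairs of neighbours in this order, 5 kept it in 12 of 12 libraries: Slc2a1 over Ramp2, Cldn5 over Pecam1, Pecam1 over Cdh5, Cdh5 over Abcb1a and Mfsd2a over Flt1. The order was turned in some libraries for Ramp2 over Cldn5, Flt1 over Tek and Tek over Kdr (kept in 10 of 12 each) and for Abcb1a over Mfsd2a (kept in 8 of 12). The differences between these neighbours were not tested.

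**Figure D1:**
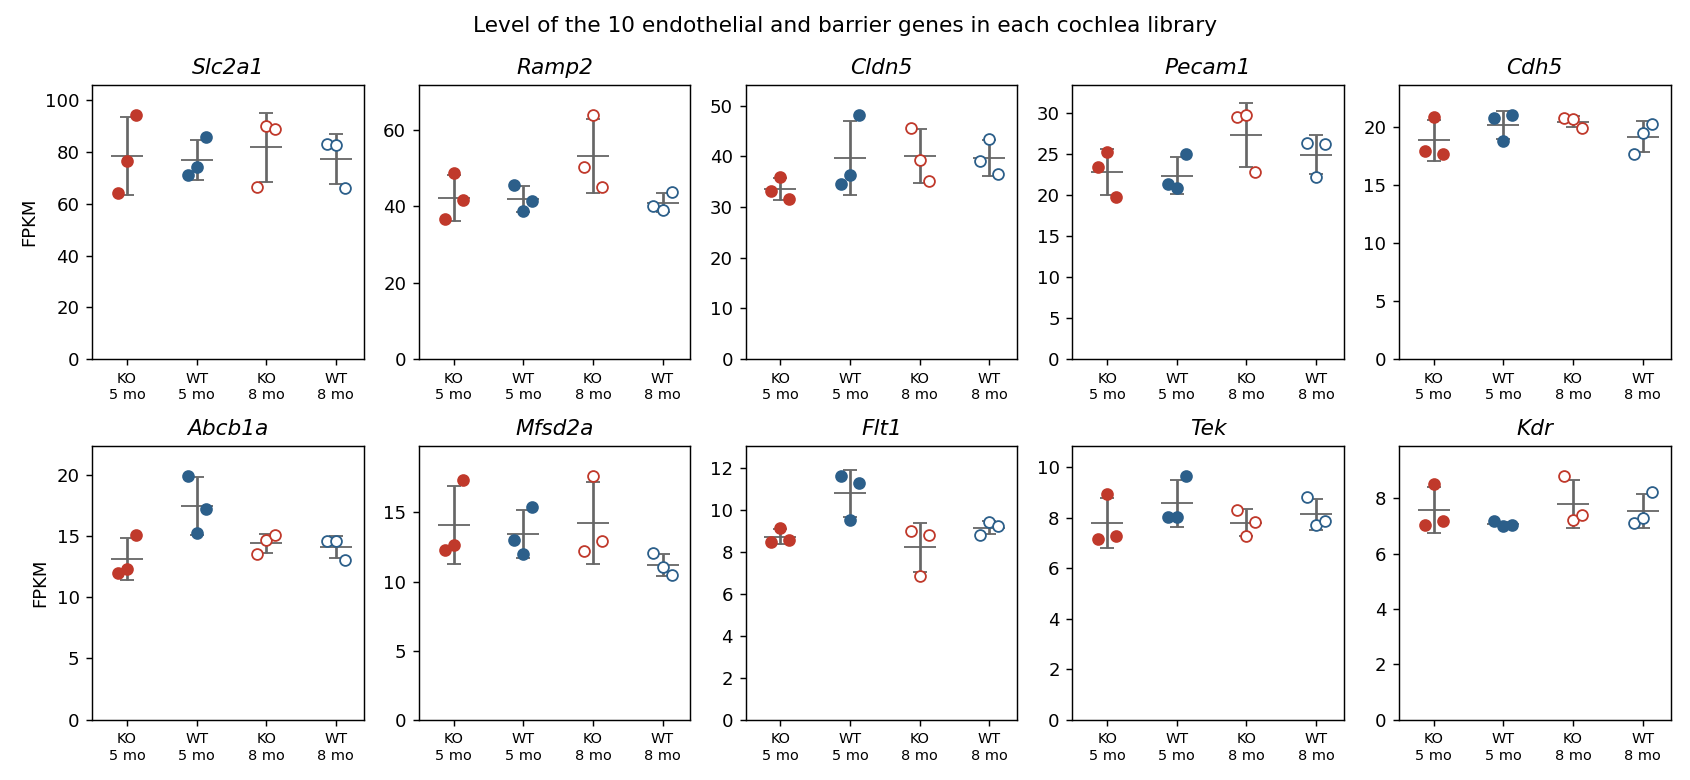
Level in FPKM (vertical axis, from 0) of each gene in each library, ordered by mean level, with KO in red and WT in blue, 5 months filled and 8 months open, and the group mean with its SD in grey. Abcb1a and Flt1 at 5 months lie lower in all 3 KO libraries than in any WT library, and Ramp2 and Mfsd2a at 8 months lie higher in all 3 KO libraries.

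The replicate SD on the log2 scale ran between 0.09 for Cdh5 and 0.22 for Slc2a1, with a median of 0.16 over the 10 genes against 0.15 over all tested genes. Cdh5, at 17.6 to 21.0 FPKM over the 12 libraries, was among the steadier genes, since only 17.0% of the tested genes had as small a spread within groups. For Slc2a1 and Mfsd2a that share was 69.1 and 68.8%.

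Whether the loss of Dusp1 altered the endothelial genes was asked at each age. At 5 months, 0 of the 10 genes passed the adjusted threshold of 0.05 in KO against WT, beside 0.0676% of all tested genes. Unadjusted p was under 0.05 for 2, both lower in KO (Abcb1a and Flt1), beside 9.92% of all genes lower at that level. The same 2 genes were the ones whose KO libraries all lay below the WT libraries, beside 13.8% of all genes. The median difference of the 10 genes was -0.05, against -0.03 over all tested genes.

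Abcb1a was the member furthest apart at 5 months. It measured 12, 12.3 and 15.1 FPKM in KO (E7, F18 and F19) against 19.9, 15.2 and 17.2 FPKM in WT (E1, E3 and E4), a mean of 13.1 ± 1.73 FPKM in KO against 17.4 ± 2.34 FPKM in WT. The groups did not overlap, but F19 of KO and E3 of WT nearly met. The difference was -0.40 ± 0.11 (95% interval -0.65 to -0.15, limma unadjusted p = 0.00514, adjusted p = 0.177). Abcb1b, the paralog with which Abcb1a may share some reads, averaged 1.08 FPKM in KO and 0.983 FPKM in WT at 5 months. The brain genes moved with it. Within groups the deviations of Abcb1a from the group mean followed those of the brain list over the 12 libraries (Pearson r = 0.92, Spearman rho = 0.94, and r = 0.91 without the 2 libraries furthest out on the brain list), and with the brain list as a covariate the difference at 5 months was -0.15 (limma unadjusted p = 0.101, adjusted p = 0.919). The brain list was itself lower in KO, with median differences of -0.55 at 5 and -0.21 at 8 months. This covariate and the genotype are thus partly the same contrast. The part of brain tissue in the level of Abcb1a was not tested further.

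At 8 months Abcb1a had 13.5, 14.7 and 15 FPKM in KO (F5, F6 and F27) against 14.6, 14.6 and 13.1 FPKM in WT (F1, F10 and F12), overlapping groups and a difference of 0.03 ± 0.11 (95% interval -0.22 to 0.28). The change of the genotype difference between 8 and 5 months was 0.43 ± 0.16 for Abcb1a (95% interval 0.08 to 0.78, limma unadjusted p = 0.0218, adjusted p = 0.876). It was the only 1 of the 10 genes under an unadjusted 0.05 in that comparison, beside 3.02% of all genes higher at that level, and 0 of 10 passed the adjusted threshold, beside 0.00614% of all genes.

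Flt1, a receptor that binds VEGF tightly but signals weakly and so limits its access to Kdr, was the member with the smallest p over both ages in the limma fit without a covariate and in the permutation test. It measured 8.45, 9.13 and 8.58 FPKM in KO against 11.6, 9.51 and 11.2 FPKM in WT at 5 months, where the groups did not overlap, and 8.96, 6.86 and 8.81 FPKM in KO against 8.78, 9.42 and 9.25 FPKM in WT at 8 months, where they did. The means were 8.72 ± 0.363 FPKM in KO and 10.8 ± 1.12 FPKM in WT at 5 months, and 8.21 ± 1.17 FPKM in KO and 9.15 ± 0.328 FPKM in WT at 8 months. The difference was -0.29 ± 0.11 at 5 months (95% interval -0.52 to -0.05, limma unadjusted p = 0.0220, adjusted p = 0.221) and -0.16 ± 0.11 at 8 months (95% interval -0.39 to 0.08, adjusted p = 0.965). With the code letter as a covariate it was -0.33 at 5 months. Only KO at 5 months holds both letters, so this value sets E7 alone against the WT libraries of that age.

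Averaged over both ages the difference of Flt1 was -0.22 ± 0.08 (limma unadjusted p = 0.0144, adjusted p = 0.224), and an exact two-sided permutation of the genotype within age, which can go down to 0.005 over its 400 arrangements, gave p = 0.015. This test was run for each of the 10 genes, and its p are not adjusted for that number. The other 9 had exact permutation p of 0.135 (Ramp2) to 0.975 (Cdh5), with Abcb1a at 0.160. By limma 0 of 10 genes passed the adjusted threshold in the averaged comparison, beside 0.0799% of all genes, and 2 (Abcb1a at -0.18 ± 0.08 and Flt1) were lower at an unadjusted p under 0.05, beside 9.66% of all genes. With the brain list as a covariate the averaged difference was -0.15 for Flt1 (limma adjusted p = 0.815) and -0.02 for Abcb1a (adjusted p = 0.961). With the neutrophil list it was -0.27 for Flt1 (limma unadjusted p = 0.0295), where Slc2a1 (0.34, unadjusted p = 0.00654) and Mfsd2a (0.40, unadjusted p = 0.0148) were smaller in p. None of these passed the adjusted threshold.

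Kdr, which shares its ligand with Flt1, had no such gap. It measured 7.03, 8.52 and 7.18 FPKM in KO against 7.17, 7.01 and 7.04 FPKM in WT at 5 months, and 8.80, 7.20 and 7.38 FPKM in KO against 7.10, 7.29 and 8.22 FPKM in WT at 8 months. The groups overlapped at both ages, with differences of 0.09 ± 0.10 (95% interval -0.13 to 0.31) and 0.04 ± 0.10 (95% interval -0.18 to 0.26). The ratio of Flt1 to Kdr, taken after these values had been seen and given without a test, was 1.20, 1.07 and 1.19 in KO (E7, F18 and F19) against 1.62, 1.35 and 1.60 in WT (E1, E3 and E4) at 5 months, and 1.02, 0.953 and 1.19 in KO (F5, F6 and F27) against 1.24, 1.29 and 1.12 in WT (F1, F10 and F12) at 8 months. It lay lower in all KO libraries at 5 months and overlapped at 8 months. Vegfa, the ligand of both and also picked after its values were known, measured 35.3 to 62.5 FPKM in KO against 32.2 to 36.9 FPKM in WT at 5 months, a difference of 0.32 ± 0.18 (limma adjusted p = 0.374) in which F18 alone stood above 40 FPKM.

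Tek, which holds vessels quiescent when angiopoietin binds it, measured 7.13, 8.92 and 7.26 FPKM in KO against 8.01, 8.03 and 9.64 FPKM in WT at 5 months and 8.31, 7.26 and 7.83 FPKM in KO against 8.81, 7.71 and 7.84 FPKM in WT at 8 months. The groups overlapped, and the differences were -0.13 ± 0.11 (95% interval -0.37 to 0.10) and -0.05 ± 0.11 (95% interval -0.29 to 0.18).

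At 8 months the members that stood apart lay on the other side. By limma 0 of 10 genes passed the adjusted threshold in KO against WT, beside 0.0123% of all genes. Only Ramp2 had an unadjusted p under 0.05, higher in KO, beside 2.21% of all genes higher at that level. Ramp2 and Mfsd2a, 2 of the 10, had all KO libraries above all WT libraries, beside 4.10% of all genes. The median difference of the 10 genes was 0.06, against -0.004 over all tested genes.

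Ramp2, which carries the receptor Calcrl to the cell surface and turns it into the adrenomedullin receptor, measured 50.3, 63.8 and 45 FPKM in KO (F5, F6 and F27) against 40.2, 38.9 and 43.8 FPKM in WT (F1, F10 and F12) at 8 months. Its means were 53.0 ± 9.69 FPKM in KO and 41.0 ± 2.52 FPKM in WT, with a difference of 0.35 ± 0.13 (95% interval 0.06 to 0.65, limma unadjusted p = 0.0247, adjusted p = 0.940). F6 was the highest of the 12 libraries, and without it the difference was 0.22. At 5 months Ramp2 overlapped, at 36.6, 48.6 and 41.6 FPKM in KO against 45.6, 38.8 and 41.5 FPKM in WT, and the change of its genotype difference between the ages was 0.35 ± 0.19 (limma unadjusted p = 0.0957). Calcrl, named for its tie to Ramp2 after the values were seen, measured 5.55 to 6.08 FPKM in KO against 5.21 to 6.79 FPKM in WT at 8 months, with overlapping groups.

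Mfsd2a measured 12.2, 17.6 and 12.9 FPKM in KO against 12.1, 11 and 10.5 FPKM in WT at 8 months. The groups lay apart by a small gap between F5 of KO and F1 of WT, F6 was again highest, and the difference was 0.32 ± 0.16 (95% interval -0.05 to 0.68, limma unadjusted p = 0.0809, adjusted p = 0.962) and 0.16 without F6. At 5 months Mfsd2a measured 12.3, 12.7 and 17.4 FPKM in KO against 13, 12 and 15.4 FPKM in WT, overlapping groups with a difference of 0.05 ± 0.16.

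**Figure D2:**
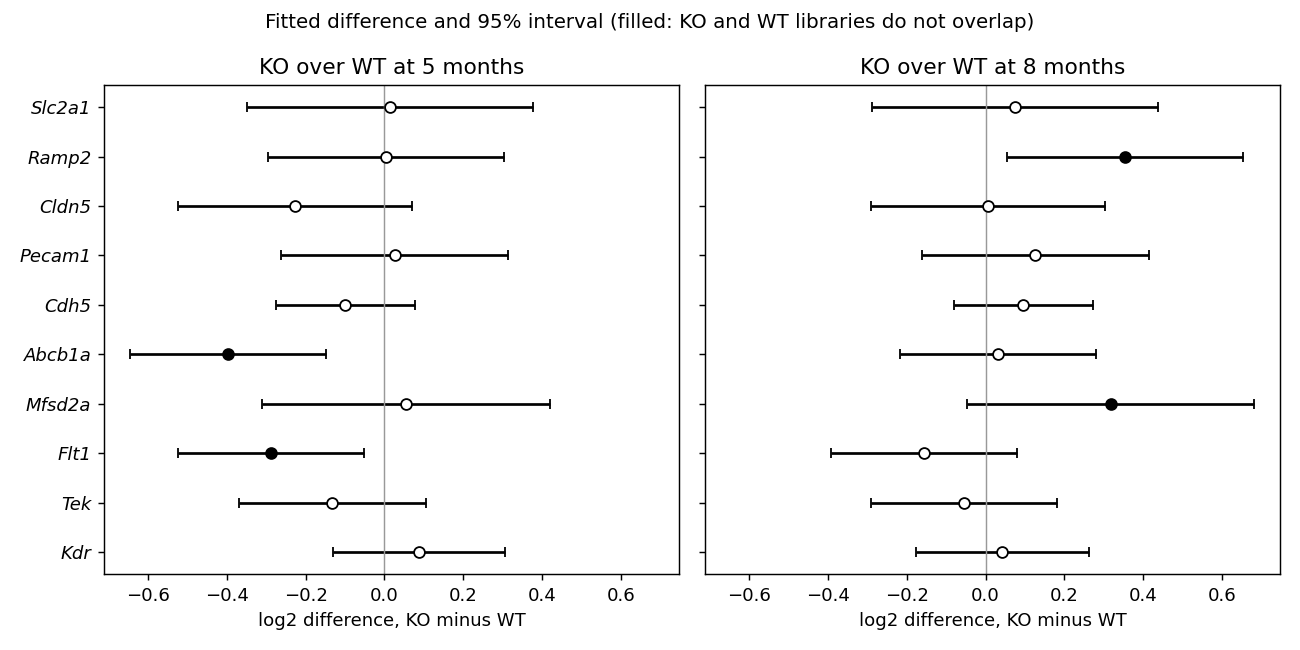
Fitted log2 difference (horizontal axis) of KO minus WT for each gene at 5 months (left) and 8 months (right), with its 95% interval, filled where the 3 KO and 3 WT libraries do not overlap. At 5 months the intervals of Abcb1a and Flt1 lie below 0, at 8 months that of Ramp2 lies above 0, and no gene passed the adjusted threshold.

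The genes of the junctions, Pecam1 and the glucose carrier overlapped between genotypes at both ages. Cldn5 measured 33.1, 35.8 and 31.5 FPKM in KO against 34.6, 36.3 and 48.0 FPKM in WT at 5 months, and 45.7, 39.2 and 35.1 FPKM in KO against 39.1, 43.5 and 36.5 FPKM in WT at 8 months. Its difference of -0.23 ± 0.13 at 5 months (95% interval -0.52 to 0.07, limma adjusted p = 0.396) was -0.08 without E4, the highest library, and at 8 months it was 0.01 ± 0.13. Cdh5 measured 17.9, 20.8 and 17.7 FPKM in KO against 20.7, 18.8 and 21.0 FPKM in WT at 5 months, and 20.7, 20.7 and 19.9 FPKM in KO against 17.6, 19.4 and 20.3 FPKM in WT at 8 months. With the smallest spread of the 10 it also had the narrowest intervals, -0.28 to 0.08 at 5 months and -0.08 to 0.27 at 8 months.

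Pecam1 measured 23.5, 25.3 and 19.8 FPKM in KO against 21.3, 20.9 and 25.1 FPKM in WT at 5 months, and 29.6, 29.8 and 22.9 FPKM in KO against 26.4, 22.2 and 26.3 FPKM in WT at 8 months. Its differences were 0.03 ± 0.13 and 0.13 ± 0.13, with overlapping groups at both ages. Slc2a1 measured 64.3, 76.7 and 94.2 FPKM in KO against 71.0, 74.2 and 85.7 FPKM in WT at 5 months, and 66.3, 90.1 and 88.9 FPKM in KO against 83.1, 82.9 and 66.0 FPKM in WT at 8 months. E7, F5 and F12 were the lowest libraries, each of another group, and the differences were 0.01 ± 0.16 (95% interval -0.35 to 0.38) and 0.07 ± 0.16 (95% interval -0.29 to 0.44).

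Between 8 and 5 months no member passed the threshold in either genotype. In KO 0 of 10 genes passed the adjusted threshold of limma, beside 0% of all genes, and Ramp2 alone had an unadjusted p under 0.05, higher at 8 months by 0.32 ± 0.13 (adjusted p = 0.381), beside 8.84% of all genes higher at that level. The other 9 genes in KO had differences of -0.09 (Flt1) to 0.25 (Pecam1). In WT 0 of 10 passed, beside 0.0123% of all genes, and Abcb1a alone had an unadjusted p under 0.05, lower at 8 months, at -0.29 ± 0.11 (limma adjusted p = 0.630), beside 3.55% of all genes lower at that level. The WT libraries of Abcb1a and of Flt1 at 8 months all lay below those at 5 months, 2 of the 10 genes, beside 8.80% of all genes. The difference of Flt1 in WT was -0.22 ± 0.11 (95% interval -0.46 to 0.01). These comparisons with age in WT share the WT libraries at 5 months with the comparison of genotypes at 5 months, in which the same libraries of Abcb1a and Flt1 were the high ones.

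Within groups the members did not move as a single block. Over the 12 libraries, after each gene's group mean was taken off, Pearson r between pairs of the 10 genes ran from -0.54 (Slc2a1 with Kdr) to 0.78 (Slc2a1 with Mfsd2a), with a median of 0.15 over the 45 pairs, 30 above and 15 below 0. The points share library and group, so these values describe the libraries only. The sets that follow were picked from these r after they had been seen. The efflux pump and carriers Abcb1a, Slc2a1 and Mfsd2a went together, at r of 0.59 to 0.78. Without the 2 libraries furthest out, Slc2a1 with Mfsd2a, whose promoters are printed above, had r = 0.71 (Spearman rho = 0.83 over all 12), whereas Abcb1a with Mfsd2a had 0.36. The junction and receptor genes Cldn5, Cdh5, Pecam1, Kdr and Tek went together in all of their 10 pairs, at r of 0.30 (Cldn5 with Kdr) to 0.69 (Cdh5 with Kdr) and a median of 0.48. Without the 2 libraries furthest out these pairs ran between 0.05 (Kdr with Tek) and 0.64 (Pecam1 with Tek), so some of them rest on those libraries. Flt1, also a receptor kinase, was at -0.11 with Pecam1, and neither it nor Ramp2 was put in a set. Between the sets 11 of 15 pairs were below 0, with a median of -0.18. Flt1 followed Kdr (r = 0.51), Tek (r = 0.43) and Cdh5 (r = 0.42), and Ramp2 followed Cdh5 (r = 0.61) and Pecam1 (r = 0.51).

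**Figure D3:**
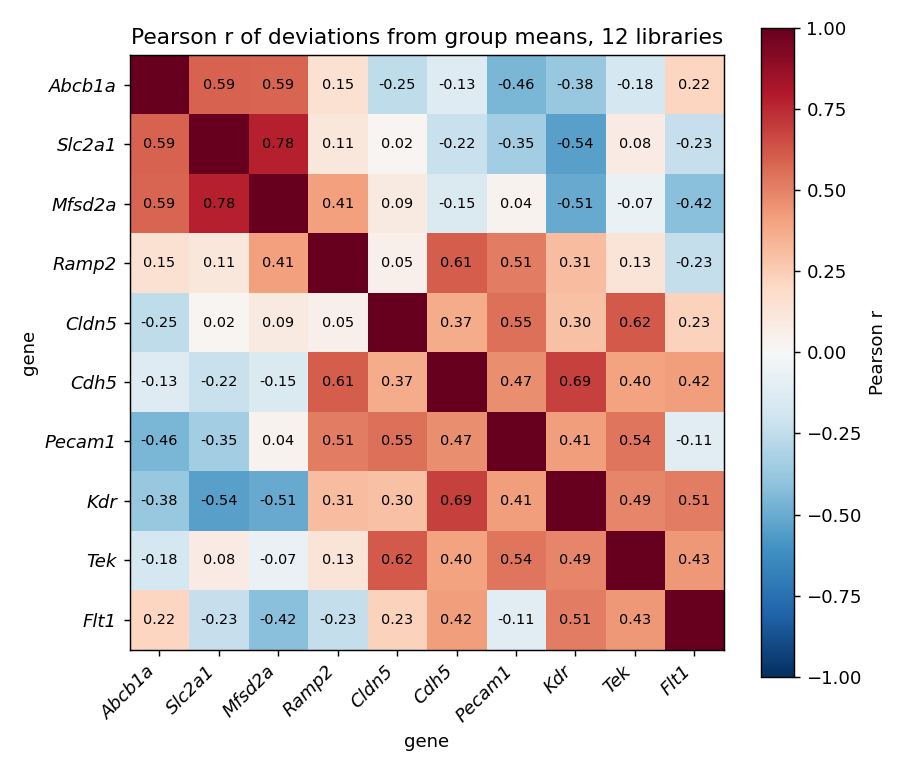
Pearson r between each pair of genes over the 12 libraries after the group means were taken off, from -1 (blue) to 1 (red). Slc2a1 with Mfsd2a is the highest pair at 0.78, the 10 pairs of Cldn5, Cdh5, Pecam1, Kdr and Tek are all above 0, and Slc2a1 with Kdr is the lowest at -0.54.

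Single members followed different cell markers across the libraries. Pecam1 went with the other 29 tested endothelial identity genes, among them Erg, Sox17 and Tie1 (r = 0.93 with their mean, rho = 0.87). The list also holds Tal1 and Gpihbp1. Their standard errors for 8 against 5 months in KO were 0.59 and 0.69, against 0.13 for Tie1. Such variable genes weigh more in the mean, and r without them was not computed. Kdr (r = 0.63), Tek (r = 0.62), Cldn5 (r = 0.53) and Cdh5 (r = 0.43, and 0.27 without the 2 libraries furthest out) followed the same mean less closely, and Abcb1a (r = -0.62) and Slc2a1 (r = -0.55) ran against it. Slc2a1, which in rodents is known from the basal cells of the stria vascularis besides the capillaries, went with the 15 tested stria genes (r = 0.85, rho = 0.76), and against the 11 tested megakaryocyte and platelet genes (r = -0.88) and the 16 tested neutrophil genes (r = -0.84). With the brain list Slc2a1 had r = 0.32, and 0.79 without the 2 libraries furthest out. Mfsd2a had the same signs at smaller size, 0.47 with the stria list and -0.65 with the megakaryocyte list. Over the 34 tested genes of the barrier list, r with the brain list ran from -0.53 (Plvap) to 0.46 (Spock2), against 0.92 for Abcb1a. With the stria list it ran from -0.77 (Slc16a1) to 0.83 (Jam3). Slc3a2 (0.77), F11r and Lsr (0.73 each) came next, so the 0.85 of Slc2a1 was not set apart from the barrier genes.

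**Figure D4:**
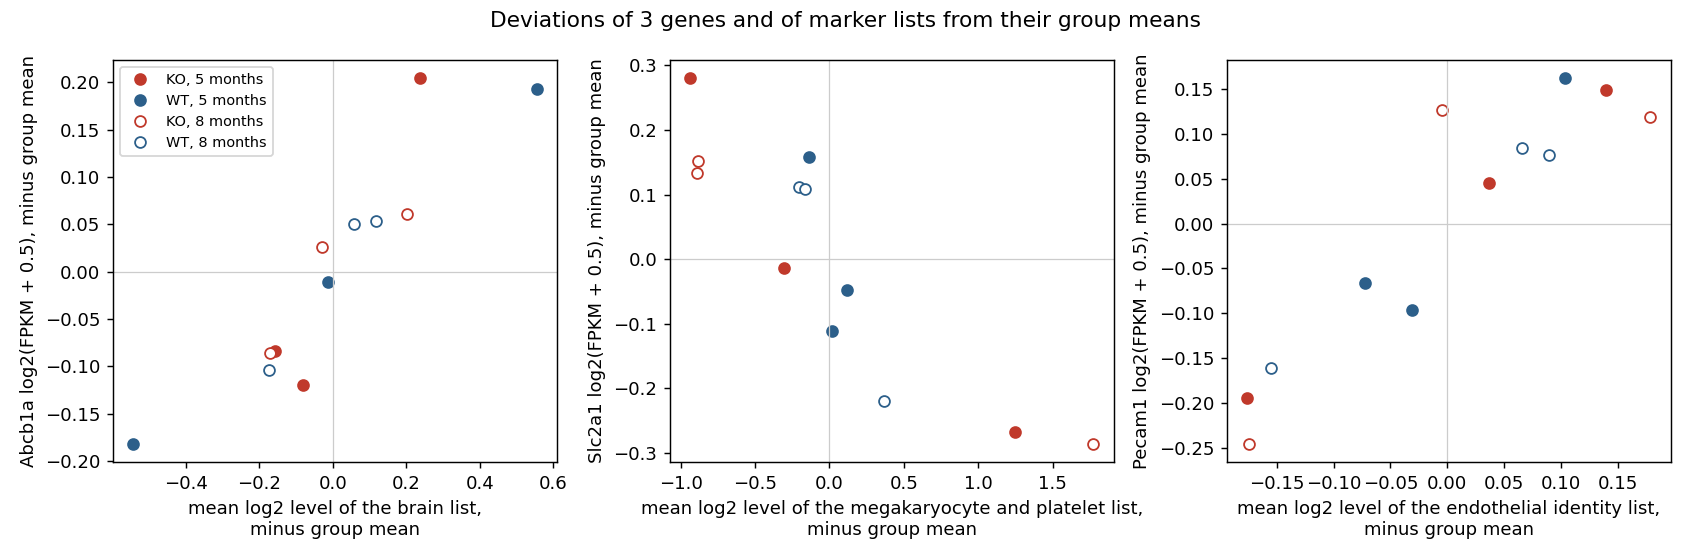
Deviation from the group mean of Abcb1a, Slc2a1 and Pecam1 (vertical axes, log2) against that of the mean level of the brain, the megakaryocyte and platelet, and the endothelial identity lists (horizontal axes, log2), 1 point per library, with KO in red and WT in blue, 5 months filled and 8 months open. Abcb1a goes up with the brain list (r = 0.92), Slc2a1 down with the megakaryocyte and platelet list (r = -0.88) and Pecam1 up with the endothelial identity list (r = 0.93).

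With the mean of the neutrophil list as a covariate, the difference of KO against WT at 5 months for Slc2a1 was 0.52 (limma unadjusted p = 0.00754, adjusted p = 0.520) in place of 0.01, and that of Mfsd2a was 0.43 (adjusted p = 0.614) in place of 0.05. Flt1 kept its side, at -0.38 (adjusted p = 0.588). With the code letter as a covariate Slc2a1 and Mfsd2a lay on the other side, at -0.25 and -0.12 (limma adjusted p = 0.619 and 0.862), while Abcb1a was at -0.52 (adjusted p = 0.173). The neutrophil list itself did not overlap between the genotypes at 5 months, so the covariate and the genotype are partly the same contrast there. Without E7 and F5, the libraries highest in neutrophil genes, the differences at 5 months were 0.15 for Slc2a1, 0.14 for Mfsd2a, -0.34 for Abcb1a and -0.27 for Flt1, none past the adjusted threshold. The part of blood-forming cells in these levels was not tested further.

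**Figure D5:**
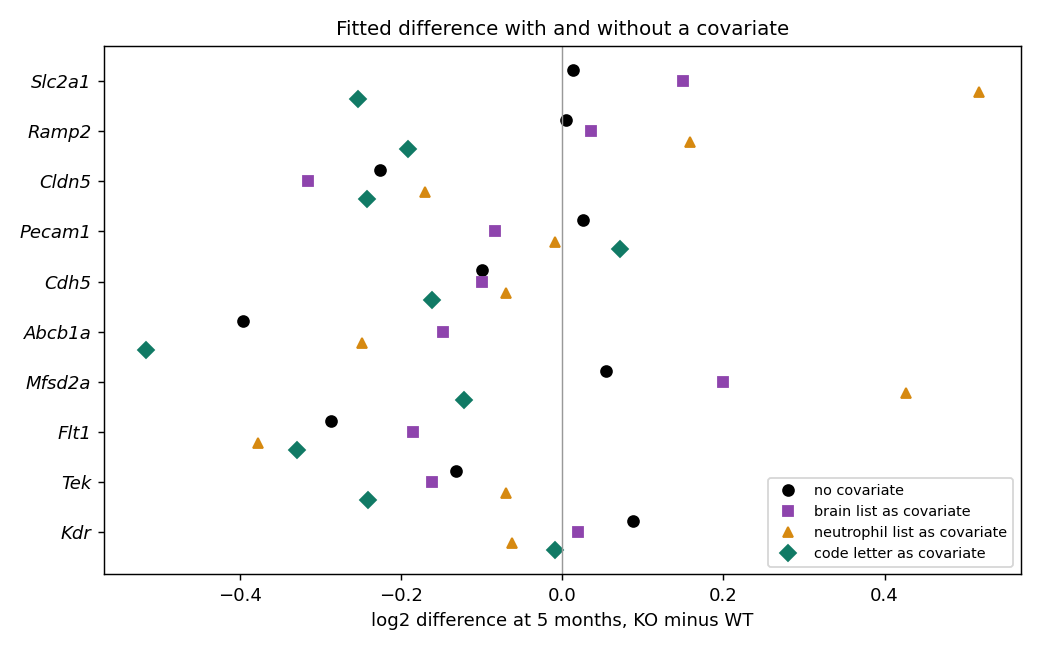
Fitted log2 difference of KO minus WT at 5 months (horizontal axis) for each gene without a covariate (circles), with the mean of the brain list (squares), that of the neutrophil list (triangles) or the code letter (diamonds) as covariate. Abcb1a goes to -0.15 with the brain list and -0.52 with the letter, whereas Slc2a1 goes to 0.52 with the neutrophil list and -0.25 with the letter. The diamonds set E7 alone against the WT libraries.

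The 10 genes outside the members whose deviations were most like the mean of the members were Fignl2 (r = 0.93), Pcbd2 (r = 0.91), Slc25a28 and Catsper2 (r = 0.90 each), Abcd4, Ccm2l and AU021092 (r = 0.88 each), Tor2a and N4bp3 (r = 0.87 each) and Rnf215 (r = 0.85), over the 12 libraries and 16266 genes searched. None of them was in the lists used here.

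Further genes of the vessel wall were read from lists, and 0 of them passed the adjusted threshold of limma in any of the 6 comparisons. Of the 29 tested endothelial identity genes, at 5 months 1 was higher and 0 lower in KO at an unadjusted p under 0.05, beside 8.23% of all genes higher and 9.92% lower at that level. At 8 months 0 were higher and 0 lower, beside 2.21% of all genes higher and 483 of all 16276 lower. The median difference was -0.01 at 5 and 0.03 at 8 months. Over both ages Emcn, a sialomucin of capillaries and veins, was lowest in p at -0.27 ± 0.10 (adjusted p = 0.235). It measured 39.1, 44.8 and 39.1 FPKM in KO against 41.8, 46.5 and 63.0 FPKM in WT at 5 months, which overlapped, and 36.8, 40.2 and 44.2 FPKM in KO against 53.3, 47.8 and 45.4 FPKM in WT at 8 months, with no overlap. Erg, an endothelial transcription factor, was next at 0.16 ± 0.08 (adjusted p = 0.349).

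Of the 22 tested genes of VEGF, angiopoietin and adrenomedullin signalling, 0 were higher and 2 lower in KO at 5 months at an unadjusted p under 0.05, beside 8.23% of all genes higher and 9.92% lower. At 8 months 2 were higher and 0 lower, beside 2.21% of all genes higher and 483 of all 16276 lower. The smallest p over both ages belonged to Ramp1, which with Calcrl forms the receptor of calcitonin gene-related peptide (0.28 ± 0.10, limma adjusted p = 0.225), and Hey1, a target of Notch (-0.22 ± 0.09, adjusted p = 0.251). Angpt2, an antagonist of Tek named for that role after its values were seen, averaged 7.12 FPKM in KO and 7.93 FPKM in WT at 5 months, a difference of -0.15 ± 0.12 with overlap, and 8.60 FPKM in KO and 6.82 FPKM in WT at 8 months, a difference of 0.33 ± 0.12 (limma adjusted p = 0.940) with no overlap.

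Of the 34 tested genes of barrier transport and junctions, 0 were higher and 4 lower in KO at 5 months at an unadjusted p under 0.05 (all genes, 8.23% higher and 9.92% lower), with a median of -0.10. At 8 months 0 were higher and 0 lower (all genes, 2.21% higher and 483 of 16276 lower), with a median of -0.05. Over both ages Slc7a1, a carrier of cationic amino acids, was at -0.16 ± 0.05 (limma adjusted p = 0.214). Slco1a4, an organic anion carrier of brain capillaries, was at -0.34 ± 0.11 (adjusted p = 0.216), with 33.6, 33.3 and 33.5 FPKM in KO against 39.1, 48.2 and 45.2 FPKM in WT at 5 months and 27.8, 31.7 and 37.5 FPKM in KO against 49.4, 38.9 and 31.2 FPKM in WT at 8 months. The genotypes lay apart at 5 months and overlapped at 8 months, where F12 of WT lay below F6 and F27 of KO.

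Of the 17 tested pericyte and mural genes, 1 was higher and 5 lower in KO at 5 months at an unadjusted p under 0.05 (all genes, 8.23% higher and 9.92% lower), with a median of -0.14. At 8 months 1 was higher and 0 lower (all genes, 2.21% higher and 483 of 16276 lower), with a median of 0.03. Vtn, vitronectin, had the smallest p over both ages (-0.38 ± 0.15, limma adjusted p = 0.249), with 37.3, 34.5 and 47.4 FPKM in KO against 86.4, 56.8 and 73.1 FPKM in WT at 5 months and no overlap, but 40.7, 69.4 and 62.6 FPKM in KO against 53.9, 53.8 and 50.5 FPKM in WT at 8 months. Mcam, a cell adhesion molecule of mural and endothelial cells, was at -0.14 ± 0.06 (adjusted p = 0.269).

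Of the 9 tested genes of endothelial adhesion and activation, Procr, the endothelial receptor of protein C, was higher over both ages by 0.49 ± 0.11 (limma unadjusted p = 0.00104, adjusted p = 0.122). It measured 5.63, 6.71 and 5.06 FPKM in KO against 3.5, 5.28 and 4.92 FPKM in WT at 5 months, and 7.54, 9.69 and 8.11 FPKM in KO against 5.49, 4.80 and 5.17 FPKM in WT at 8 months, apart at 8 months and overlapping at 5. Vcam1, a leucocyte adhesion molecule, was at 0.30 ± 0.13 (adjusted p = 0.275). Of the 6 tested genes of lymphatic endothelium, Prox1, which supporting cells of the organ of Corti also express, was at -0.36 ± 0.13 (limma adjusted p = 0.233) and Reln at -0.38 ± 0.16 (adjusted p = 0.267). Ccl21a, on the list but not tested, was at 0 in every library.

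Among markers of other cells, 16 of 16 tested neutrophil genes, 11 of 12 B cell genes, 10 of 11 red cell genes and 11 of 11 megakaryocyte genes were higher in KO at 5 months at an unadjusted p under 0.05, beside 8.23% of all genes, with medians of 4.87, 2.04, 2.27 and 2.46. At 8 months 0 of each were, beside 2.21% of all genes, with medians of 0.86, -0.13, 0.30 and 0.47. Over both ages the smallest p were those of Lcn2 (2.81 ± 0.76) and Ngp (3.22 ± 0.88) among neutrophil genes, Blnk and Vpreb3 among B cell genes, Slc4a1 and Car1 among red cell genes and Ppbp and Gp9 among megakaryocyte genes. The brain list had medians of -0.55 at 5 and -0.21 at 8 months, with the smallest p for Slc17a6 (-0.32 ± 0.07) and Olig1 (-0.54 ± 0.14). Of its 18 tested genes 7 were lower in KO at 5 months at an unadjusted p under 0.05, beside 9.92% of all genes. At 8 months 1 was, beside 483 of all 16276. Slc17a6 ran against its list in WT at 5 months. It measured 22.6, 29.8 and 26.6 FPKM in E1, E3 and E4, where the list stood at 3.80, 2.70 and 3.24. Which tissue the RNA of the listed brain genes came from was not tested. The macrophage list, led by Cd14 and Cd68, had medians of 0.25 and 0.22, and the stria list had 0.08 and -0.10. Of the 13 tested macrophage genes 4 were higher in KO at 5 months at an unadjusted p under 0.05, and 0 at 8 months. The shares of all genes were 8.23% and 2.21%. None of these genes passed the adjusted threshold.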

How the data were processed

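RNA of whole cochleae was measured in 12 libraries. The authors dissected cochleae into RNAlater, prepared stranded polyA libraries (TruSeq), sequenced single ends of 50 bases and, by the submitters' processing notes, used FastQC 0.10.1, TopHat2 2.0.10, Bowtie 1.0.0, SAMtools 0.1.19 and Cufflinks 2.2.1 on build mm9. The deposited table holds the authors' FPKM, with the decimal point missing from much of it. It was put back by finding, for each gene in each group, the only placing that averages to the group's FPKM in the comparison files the authors deposited, within a relative tolerance of 2e-05. These group values, deposited with comma decimals and of unit other, served only for that. Of 95804 pairs of gene and group 95790 had 1 placing and 0 had several, 55.2% of values changed, and 23945 genes were kept. Hba-a1, Hba-a2 and 4 other genes were left out. The authors' fold changes, p-values and gene set reports were not used.

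Genes averaging at least 0.5 FPKM were taken as log2(FPKM + 0.5) into limma 3.58.1 (R 4.3.3) with 4 groups and a variance trend, and 6 contrasts were read. FPKM carry no read numbers, so depth is unknown and no counting error is given. They are shares of a library, and a gain of some genes lowers the rest. Labels give each library its own code, taken here as a single animal, and on that reading p measures the spread between animals. Single members had an exact permutation test, since 3 against 3 within an age cannot go below 0.1. Other genes were named by a rule, the 2 genes of each list with the smallest p over both ages and any past the threshold. The names for the stria list are not reported here. Alternatives were pseudocounts, filters, scalings, weights, covariates and each library left out. The members and lists were chosen with earlier results of these data known. Python 3.11.15 made the tables and Matplotlib 3.10.9 the figures.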

Additional observations from a re-analysis of the deposited data

How the results depend on the processing

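Under 27 alternatives for each of the 6 comparisons, 2 of them chosen after the data were seen (the endothelial identity list as covariate, and both E7 and F5 left out), all 162 counts of members past the adjusted threshold were 0, so no call was gained. The median difference of the members moved by more than the replicate SD of their mean (0.08) with the code letter as a covariate. It did so too at 5 months without F18. With the letter it went to -0.22 in KO against WT at 5 months and to -0.061 averaged over both ages. It went to 0.25 for the change of that difference between ages and to -0.26 for 8 against 5 months in WT. The size of this covariate comes from E7 against F18 and F19 alone, so the value at 5 months sets E7 alone against WT. Leaving out single libraries gave medians of -0.14 (without F18) to -0.025 at 5 months, 0.04 to 0.09 at 8 months, -0.01 to 0.04 averaged over both ages, 0.09 to 0.23 for the change between ages, 0.03 to 0.16 with age in KO and -0.10 to -0.01 with age in WT. Abcb1a at 5 months was below 0 in 27 of 27 alternatives, from -0.52 (code letter) to -0.15 (brain list), and Flt1 in 27 of 27, from -0.38 to -0.18. Ramp2 at 8 months was above 0 in 27 of 27, from 0.22 to 0.46. The libraries of these genes do not overlap between genotypes at those ages. Leaving out or weighting libraries, or another pseudocount or filter, could therefore not turn the sign, and most of each count was fixed in advance. The lowest adjusted p of any member in a genotype comparison, over the alternatives, was 0.119. The exact permutation p of Flt1 was 0.015 at each pseudocount. No paired analysis was possible because the codes are not shared between groups. Depth is unknown, and with 3 libraries a group the 95% intervals of single members at 1 age span 0.35 to 0.73 on the log2 scale.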
